A study of Arabidopsis thaliana with 9 samples.

Results

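The genes described here are the sugar starvation and branched-chain amino acid catabolism genes of Arabidopsis thaliana. They were chosen by locus identifier: 8 starvation and dark marker genes, 7 genes of branched-chain amino acid breakdown, 4 of the electron transfer route that serves it, 4 of glutamate, proline and pyruvate metabolism, 4 class II trehalose-phosphate synthase genes, 3 genes of the kinase SnRK1 and 4 of the S1 and C classes of bZIP transcription factors. The list was drawn up with earlier results of these data known. Of these 34 loci, 32 had a row among the 33557 rows of both expression tables, while bZIP11 (AT4G34590) and bZIP53 (AT3G62420) were not analysed here. PolyA RNA of whole Col-0 seedlings was sequenced, in 3 groups of 3 biological replicates. All plants were grown on solid half-strength MS medium for 14 days, and liquid medium was added to every dish for the last 12 h. Wild-type seedlings received the liquid medium alone, the doxycycline group was wild type given the same medium with 25 µg/ml of the drug, and the mrpl1-1 group was the mutant given medium without drug. Doxycycline, a tetracycline, blocks protein synthesis on the ribosomes of mitochondria and plastids. MRPL1 is named for the mitochondrial ribosome, and mrpl1-1 is a single allele whose lesion the labels do not describe. A drug given for 12 h and a mutation carried for life differ in time, so their values are given side by side.

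When sugar runs short, in darkness or after a block of energy metabolism, plant cells activate SnRK1, a kinase related to AMPK of animals and SNF1 of yeast. SnRK1 and its partner bZIP factors raise the dark-inducible (DIN) genes and the enzymes that burn amino acids and proteins in place of sugar. Leucine, isoleucine and valine are transaminated, oxidatively decarboxylated and dehydrogenated in mitochondria, and the electrons of the last step pass through the electron transfer flavoprotein and its ubiquinone oxidoreductase (ETF and ETFQO) into the respiratory chain. Many of these transcripts are low in plants with ample sugar and light and rise within hours of darkness.

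Values are FPKM, fragments per kilobase of transcript and per total of mapped reads, with the mutant libraries set on the scale of the table that holds doxycycline. Reads on genes, estimated from the FPKM of genes with single reads, were between 3.58 and 9.36 M per library. On that scale 1 read in a transcript of 1 kb was worth between 0.1235 and 0.330 FPKM. MRPL1 (AT2G42710, a locus taken from background knowledge) was at 20.7, 19.1 and 26.7 FPKM in wild type and 20.8, 12.8 and 19.8 FPKM in the libraries labelled mrpl1-1 (limma, adjusted p = 0.931), so its level gave no check of the label. The libraries least like their own group were wild-type replicate 3 and mrpl1-1 replicate 2, with mean correlations to the rest of their own group of 0.934 and 0.941 where the other libraries had 0.945 to 0.965. The summed level of 12 root markers was 117 to 131 FPKM with doxycycline, 209 to 232 FPKM in wild type and 237 to 375 FPKM in mrpl1-1. RHS13 and PRP3 were the largest parts of the wild-type sum, with means of 61.5 and 49.5 FPKM, against 18.7 and 17.2 FPKM with doxycycline. The markers did not move alike. In mean FPKM, doxycycline over wild type was 0.304 for RHS13 and 0.347 for PRP3, but 0.929 for SHR and 1.15 for SCR. Of 10 root markers tested, 9 had a negative and 1 a positive log2 difference with doxycycline, and 5 were lower at an unadjusted p under 0.05 (limma). In whole seedlings, fewer cells of a type and less RNA per cell cannot be told apart. The 8 green tissue markers summed to 15510 to 18610 FPKM in wild type and doxycycline libraries and to 16400 to 25780 FPKM in mrpl1-1, and no marker of either list was at 0 in all libraries of a group. RBCS1A was the largest part of the green sum, at 8884 to 18420 FPKM in mrpl1-1. In that mutant 5 of the 8 green markers had a positive and 3 a negative log2 difference from wild type. All 11 root markers tested in mrpl1-1 had a positive one. The part of these shifts in the results below was not tested. Over all genes the log2 differences went with exonic length (Spearman rho 0.206 for doxycycline and -0.17 for mrpl1-1 against wild type, and 0.319 for doxycycline against mrpl1-1), and the calls of members given below held with the length trend of each library removed.

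SEN1 rose in the libraries labelled mrpl1-1, and SEN1, AT3G15450 and TPS8 were lower with doxycycline than in that mutant, while no member passed the test between doxycycline and wild type. Tests were made with limma on log2(FPKM + 1) over all genes averaging 1 FPKM or more, and a call means a Benjamini-Hochberg adjusted p under 0.05. Against wild type, doxycycline gave 0 calls among 32 members tested, where 0.184% of 19073 genes were called (35 genes, 22 higher and 13 lower). An unadjusted p under 0.05 was reached by 3 of 32 members, all of them higher, against 8.49% of the genes tested. For 4 members, all higher, the doxycycline and wild-type libraries showed no overlap, as was the case for 16.0% of all genes. The median log2 difference of the members was 0.06, beside 0.00 over all genes tested.

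In mrpl1-1 against wild type, 1 of 30 members tested was called, where 0.0369% of 18994 genes were called (7 genes, 5 higher and 2 lower). An unadjusted p under 0.05 was reached by 9 members on the higher side and 1 on the lower, against 4.46% of the genes tested. Replicates did not overlap for 11 members that were higher and 3 that were lower, where 10.1% of all genes showed no overlap. The members' median was 0.16, beside a median of 0.00 over all genes. Because the members were chosen with earlier results known, neither these shares nor those of the other comparisons test the list. DIN2 and BCAT2 were under the filter on low values in this table.

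Set directly against each other, doxycycline and mrpl1-1 differed for 3 of 31 members tested, each lower with doxycycline, where 0.366% of 19105 genes were called (70 genes, 19 higher and 51 lower). An unadjusted p under 0.05 was reached by 2 members on the higher and 10 on the lower side, against 11.2% of the genes tested. Replicates did not overlap for 3 members higher and 11 lower, where 19.0% of all genes showed no overlap. The median over the members was -0.11, beside 0.01 over all genes tested. DIN2 was under the filter here. Since both comparisons with wild type share the same 3 control libraries, each comparison's own values are given for the members below.

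**Figure D1:**
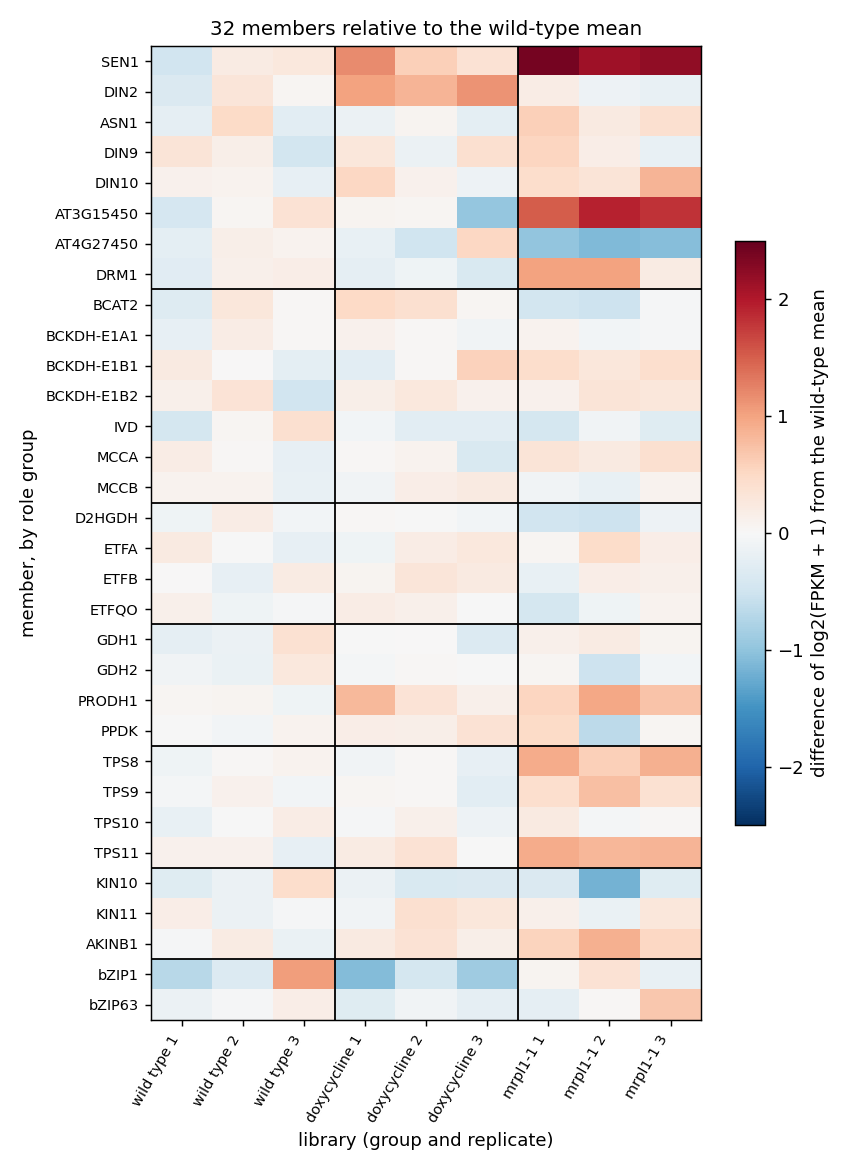
Difference of each of the 32 members from its wild-type mean, on the log2(FPKM + 1) scale, in the 9 libraries, with black lines between role groups and between sample groups. The rows of SEN1 and AT3G15450 are the darkest red in the 3 mrpl1-1 libraries, AT4G27450 is blue there, and the rows from BCAT2 to GDH2 are mostly pale.

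The starvation and dark markers held the largest differences of the set. In mrpl1-1, 1 of 7 markers tested rose and the other 6 did not pass over all genes, 4 of the 7 being higher and 1 lower at an unadjusted p under 0.05. With doxycycline none of the 8 passed, and 2 were higher at an unadjusted p under 0.05. SEN1 (AT4G35770, also DIN1) encodes a rhodanese-domain protein and is a classical transcript of darkness and senescence. It was at 1.74, 3.39 and 3.59 FPKM in wild type, at 7.59, 4.79 and 3.90 FPKM with doxycycline and at 18.9, 15.6 and 16.7 FPKM in mrpl1-1. All doxycycline libraries lay above wild type, the lowest by little, and all mrpl1-1 libraries lay far above both. The level was 5.88-fold higher in mrpl1-1 than in wild type in mean FPKM, at 17.1 ± 1.69 against 2.90 ± 1.02 (SD, n = 3; log2 difference 2.22, SE 0.24; limma, adjusted p = 0.0289). Against doxycycline it was 3.15-fold higher in mrpl1-1 (log2 difference of doxycycline from mrpl1-1 -1.53, SE 0.26; limma, adjusted p = 0.0389). The difference of doxycycline from wild type, 0.71 (SE 0.29), did not pass (limma, adjusted p = 0.564). The call against doxycycline was lost in 12 of 22 alternatives, among them those without wild-type replicate 2, any 1 of the doxycycline libraries or any 1 of the mutant libraries, with adjusted p up to 0.170 (limma). The call of SEN1 between mrpl1-1 and wild type was lost in 9 of 18 alternatives, including the fits that left out wild-type replicate 2 or any 1 of the mutant libraries, with adjusted p up to 0.245 (limma), although the log2 difference stayed between 2.15 and 2.33 in the fits without 1 of these libraries. An estimated 14.1 to 162 reads lay behind each value of SEN1, with only 18.2, 24.9 and 14.1 reads in the wild-type libraries.

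AT3G15450, annotated as an aluminum induced protein with YGL and LRDR motifs and known as a transcript of sugar starvation, was the most abundant of the 3 members called. Its level was 51.1, 70.4 and 88.4 FPKM in wild type, 71.8, 70.6 and 34.4 FPKM with doxycycline and 195.7, 261.5 and 240.4 FPKM in mrpl1-1. Each mrpl1-1 library was above every other library, and the doxycycline and wild-type ranges overlapped. In mean FPKM it was 3.95-fold higher in mrpl1-1 than with doxycycline, at 233 ± 33.6 against 59.0 ± 21.2 (SD, n = 3; log2 difference of doxycycline from mrpl1-1 -2.03, SE 0.29; limma, adjusted p = 0.0180). Against wild type, at 70.0 ± 18.6 FPKM, the log2 difference of 1.74 (SE 0.23) in mrpl1-1 did not pass over all genes (limma, adjusted p = 0.0948). The call against doxycycline was lost in 5 of 22 alternatives. These were the fits without doxycycline replicate 1 or mrpl1-1 replicate 1 or 2 (limma, adjusted p = 0.0510, 0.0533 and 0.0990), without both wild-type replicate 3 and mrpl1-1 replicate 2 (0.0618), and with the replicate number as a block (0.0528). The annotated span of AT3G15450 overlaps 41 bases of AT3G15460 on the other strand, which was at 9.22 to 17.4 FPKM in the 9 libraries.

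AT4G27450 carries the same annotation and shares 71.7% of aligned coding bases with AT3G15450, but its values lay the other way. It was at 51.5, 68.4 and 65.7 FPKM in wild type, 53.9, 43.2 and 87.7 FPKM with doxycycline and 30.6, 27.95 and 29.0 FPKM in mrpl1-1. The mrpl1-1 libraries lay close together and below all others. The log2 differences of -1.05 (SE 0.17) from wild type in mrpl1-1 and 0.99 (SE 0.23) for doxycycline from mrpl1-1 did not pass over all genes (limma, adjusted p = 0.340 and 0.117). Its span overlaps 71 bases of the opposite-strand gene PORB (AT4G27440), a chlorophyll synthesis enzyme, which was at 362 to 587 FPKM. DRM1 (AT1G28330), a dormancy-associated protein, had the highest level of all members. DRM1 was at 254, 337 and 349 FPKM in wild type, 264, 289 and 238 FPKM with doxycycline and 621.5, 623.6 and 359.8 FPKM in mrpl1-1. The first 2 mutant libraries were well above wild type and the third only just above it. The log2 difference from wild type was 0.74 (SE 0.27; limma, adjusted p = 0.931). Doxycycline lay 0.98 below mrpl1-1 in log2 terms (limma, adjusted p = 0.127), and this passed only without mrpl1-1 replicate 3 (limma, adjusted p = 0.0197) among 22 alternatives.

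The named DIN genes were less uniform. DIN2 (AT3G60140), a beta-glucosidase, was at 0.120, 0.774 and 0.479 FPKM in wild type, 1.89, 1.60 and 2.102 FPKM with doxycycline and 0.625, 0.320 and 0.255 FPKM in mrpl1-1. Here the doxycycline libraries lay above all 6 others, on an estimated 2.28 to 30.4 reads per library. The log2 difference from wild type, 1.00 (SE 0.26), did not pass (limma, adjusted p = 0.361). ASN1 (AT3G47340, also DIN6) makes asparagine, the nitrogen-rich transport amino acid of starved plants. Its level was 4.56, 8.07 and 4.397 FPKM in wild type, 4.88, 5.76 and 4.49 FPKM with doxycycline and 8.75, 6.61 and 7.52 FPKM in mrpl1-1. The mrpl1-1 range lay above that of doxycycline but overlapped wild type. DIN10 (AT5G20250), a raffinose synthase family protein, was at 93.1, 92.9 and 75.5 FPKM in wild type, 125, 93.6 and 79.5 FPKM with doxycycline and 119, 109 and 157 FPKM in mrpl1-1. All mutant libraries were above wild type, by a log2 difference of 0.54 (SE 0.20; limma, adjusted p = 0.931). DIN9 (AT1G67070), a mannose-6-phosphate isomerase, ranged from 0.712 to 2.44 FPKM with overlap of all groups.

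**Figure D2:**
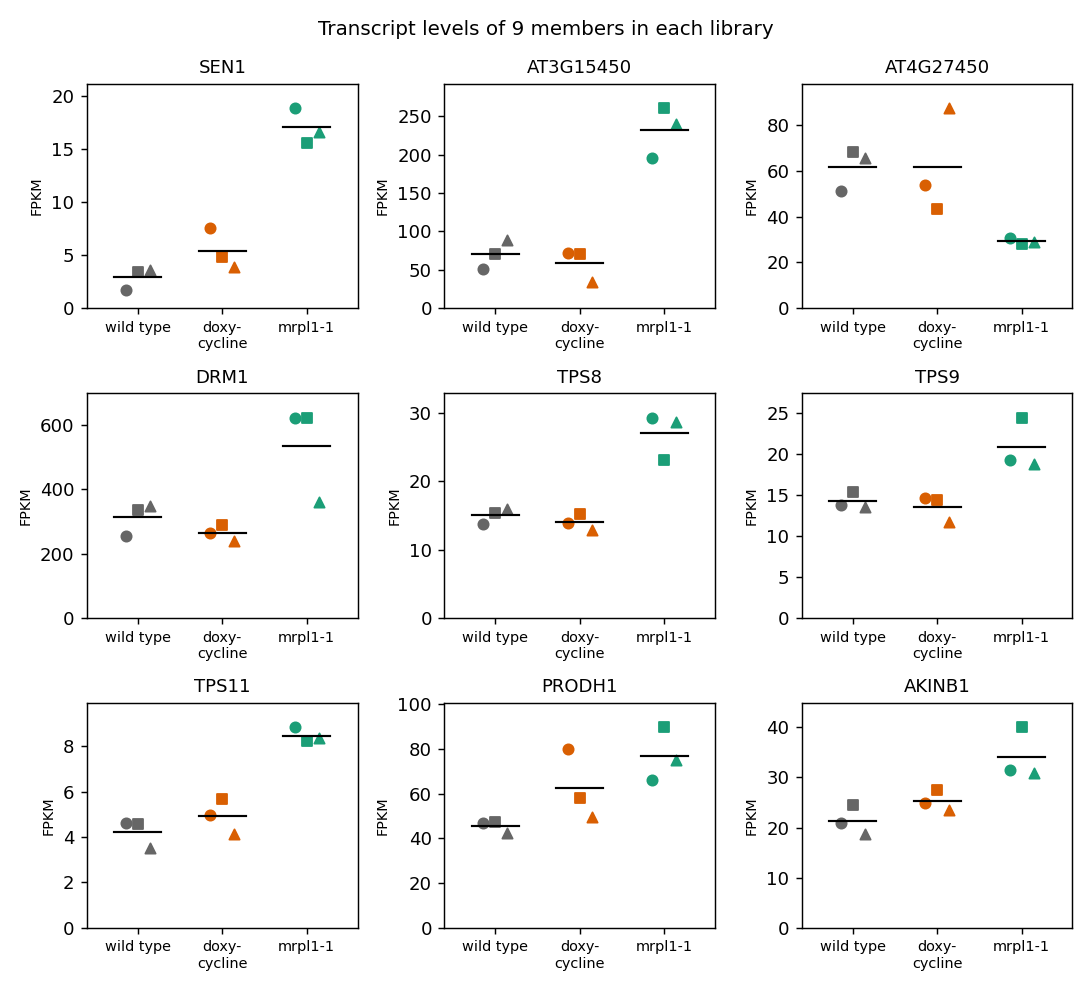
FPKM of 9 members in each library, on linear axes that start at 0, with circles, squares and triangles for replicates 1, 2 and 3 and bars for group means. SEN1 and AT3G15450 show mrpl1-1 far above both other groups, AT4G27450 shows it below them at 27.95 to 30.6 FPKM, and TPS8, TPS9 and TPS11 show doxycycline at the level of wild type.

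Of the 4 class II trehalose-phosphate synthase genes among the members, TPS8 differed between doxycycline and mrpl1-1, and no other was called in any comparison. Class I enzymes make trehalose 6-phosphate, a signal of sucrose status that inhibits SnRK1, whereas class II proteins are thought to be regulatory and several of their transcripts are repressed by sugar. None of the 4 was called in either comparison with wild type, and 3 of 4 were higher in mrpl1-1 at an unadjusted p under 0.05. TPS8 (AT1G70290) was at 13.8, 15.3 and 15.9 FPKM in wild type, 13.9, 15.2 and 12.9 FPKM with doxycycline and 29.3, 23.1 and 28.7 FPKM in mrpl1-1. Wild type and doxycycline overlapped throughout, and the mutant libraries stood apart above them. TPS8 was 1.93-fold higher in mrpl1-1 than with doxycycline in mean FPKM, at 27.0 ± 3.45 against 14.0 ± 1.17 (SD, n = 3; log2 difference of doxycycline from mrpl1-1 -0.90, SE 0.14; limma, adjusted p = 0.0312). Against wild type the difference of 0.80 (SE 0.17) did not pass (limma, adjusted p = 0.513). The call of TPS8 was lost in 9 of 22 alternatives, among them the fits without wild-type replicate 1 or 2, any 1 of the doxycycline libraries, or mrpl1-1 replicate 1 (limma, adjusted p up to 0.167).

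TPS11 (AT2G18700) was at 4.60, 4.57 and 3.50 FPKM in wild type, 4.98, 5.70 and 4.13 FPKM with doxycycline and 8.83, 8.22 and 8.36 FPKM in mrpl1-1. The 3 mutant values were close together and about at the 2.01-fold level of wild type, with a log2 difference of 0.86 (SE 0.19; limma, adjusted p = 0.513). With doxycycline TPS11 had the smallest p of the 4 genes, at 0.18 (SE 0.17; limma, adjusted p = 0.788), which was 0.08 without wild-type replicate 3. TPS9 (AT1G23870) was at 13.7, 15.4 and 13.5 FPKM in wild type, 14.6, 14.4 and 11.7 FPKM with doxycycline and 19.3, 24.5 and 18.8 FPKM in mrpl1-1, again with no overlap between the mutant and the other groups (log2 difference from wild type 0.51, SE 0.17; limma, adjusted p = 0.931). TPS10 (AT1G60140) was at 11.8 to 16.1 FPKM in all 9 libraries, and its groups overlapped. TPS8 shares 81.1% of aligned coding bases with TPS9, 72.4% with TPS10 and 67.2% with TPS11. Of the other trehalose-phosphate synthase genes, TPS1, TPS5, TPS6 and TPS7, none was called in any comparison, and their median was -0.03 in mrpl1-1 and 0.02 with doxycycline. TPS6, a class II gene like TPS5 and TPS7, had the smallest p of these, at 9.39 to 10.0 FPKM with doxycycline against 7.00 to 8.52 FPKM in wild type (log2 difference 0.25; limma, adjusted p = 0.648).

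The stretches upstream of the 3 called members and of PRODH1, the proline gene described below, are shown so that the searched motifs can be read in place. They come from the RefSeq annotation of TAIR10.1 and end at the base before the annotated gene start, on the strand of the gene. Capitals mark motif matches.
SEN1, chr4:16944678-16944877, plus strand: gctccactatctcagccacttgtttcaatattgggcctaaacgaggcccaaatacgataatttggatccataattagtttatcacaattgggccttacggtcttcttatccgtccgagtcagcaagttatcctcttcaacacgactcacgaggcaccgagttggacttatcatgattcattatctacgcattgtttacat
AT3G15450, chr3:5212684-5212983, plus strand: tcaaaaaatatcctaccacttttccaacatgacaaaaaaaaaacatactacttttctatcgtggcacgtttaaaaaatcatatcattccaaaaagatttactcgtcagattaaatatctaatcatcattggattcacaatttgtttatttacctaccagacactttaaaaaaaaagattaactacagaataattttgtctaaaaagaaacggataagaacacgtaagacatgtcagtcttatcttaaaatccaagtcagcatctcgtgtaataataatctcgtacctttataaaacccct
TPS8, chr1:26474834-26475133, minus strand: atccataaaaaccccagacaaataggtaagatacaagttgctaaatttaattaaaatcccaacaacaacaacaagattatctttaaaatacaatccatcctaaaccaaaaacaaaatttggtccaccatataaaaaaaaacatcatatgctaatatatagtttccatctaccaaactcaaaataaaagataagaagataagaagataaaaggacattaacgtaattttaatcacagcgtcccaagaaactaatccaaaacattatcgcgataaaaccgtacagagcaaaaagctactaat
PRODH1, chr3:12451557-12451856, minus strand: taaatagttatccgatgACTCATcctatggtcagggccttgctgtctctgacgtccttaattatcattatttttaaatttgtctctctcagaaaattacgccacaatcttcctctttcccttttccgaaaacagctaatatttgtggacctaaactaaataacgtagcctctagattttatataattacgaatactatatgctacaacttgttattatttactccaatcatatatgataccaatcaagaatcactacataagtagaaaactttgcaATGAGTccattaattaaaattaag
The stretch of SEN1 is 200 bases because the annotated span of the neighbouring gene AT4G35760 extends up to it, and the others are 300 bases. The windows of 300 bases before the annotated start of all 34 members and of 27443 protein-coding genes were searched on both strands for 4 motifs tied to sugar and bZIP control. The G-box CACGTG was in 2 of 34 members (5.9%) and in 7.09% of all windows. The element ACTCAT, bound by S1 bZIP factors in the PRODH1 promoter, was in 4 members (11.8%) and 14.8% of all windows. The starvation element TATCCA was in 9 members (26.5%) and 16.2% of all windows. The evening element AAAATATCT was in 0 members and 2.79% of all windows. No match overlapped a match of another motif. The windows of SEN1, AT3G15450 and TPS8 held none of these letters, which says nothing of the factors that act there. PRODH1 held ACTCAT at 283 to 278 bases before its start and the reverse complement at 24 to 19. The window of ASN1, not printed here, overlaps the gene AT3G47341. It held the G-box at 167 to 162 bases and TATCCA at 101 to 96 bases before the start of ASN1.

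The branched-chain catabolism genes showed no call in any comparison, and their values were mostly within the spread of wild type. With doxycycline none of 7 members tested and in mrpl1-1 none of 6 had an unadjusted p under 0.05 against wild type, and their medians were 0.10 and 0.11. BCAT2 (AT1G10070), the aminotransferase of the first step, was at 0.794, 1.71 and 1.29 FPKM in wild type, 2.18, 1.97 and 1.32 FPKM with doxycycline and 0.629, 0.565 and 1.19 FPKM in mrpl1-1. The doxycycline libraries lay above the mutant libraries, both overlapping wild type, on an estimated 3.38 to 26.3 reads per library. The log2 difference of doxycycline from mrpl1-1 was 0.66 (SE 0.27; limma, adjusted p = 0.409), and from wild type 0.32 (SE 0.25; limma, adjusted p = 0.743), or 0.17 without wild-type replicate 1. The branched-chain ketoacid dehydrogenase commits the carbon skeletons to breakdown. Its E1 alpha gene BCKDH-E1A1 (AT1G21400) lay between 8.42 and 11.3 FPKM in all libraries, with group means of 9.92, 9.99 and 9.81 FPKM in wild type, doxycycline and mrpl1-1. Its E1 beta genes BCKDH-E1B1 (AT1G55510) and BCKDH-E1B2 (AT3G13450, also DIN4) share 85.6% of coding bases, so some reads may fit both. BCKDH-E1B1 was at 6.50, 5.44 and 4.36 FPKM in wild type and 7.65, 6.75 and 7.54 FPKM in mrpl1-1, without overlap (log2 difference 0.38, SE 0.20; limma, adjusted p = 0.931). With doxycycline it spanned 4.33 to 8.55 FPKM. BCKDH-E1B2, the member of this complex among the DIN genes, was at 8.09 to 15.1 FPKM in wild type, 12.7 to 14.3 FPKM with doxycycline and 12.6 to 14.8 FPKM in mrpl1-1.

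The later steps had no call either. IVD (AT3G45300), isovaleryl-CoA dehydrogenase, whose electrons leave through ETF, was at 7.37, 10.6 and 13.9 FPKM in wild type, 9.83, 8.38 and 8.46 FPKM with doxycycline and 7.41, 9.71 and 8.17 FPKM in mrpl1-1. MCCA (AT1G03090) and MCCB (AT4G34030) encode the subunits of methylcrotonyl-CoA carboxylase, the next enzyme of leucine breakdown. MCCA was at 7.08 to 9.71 FPKM in wild type, 6.24 to 9.03 FPKM with doxycycline and 9.88 to 11.3 FPKM in mrpl1-1, where every library lay just above the other groups. MCCB was at 14.6 to 19.7 FPKM in all libraries, with overlap of the groups. Among 11 further branched-chain genes none was called, and the medians were 0.02 with doxycycline and 0.08 in mrpl1-1. An unadjusted p under 0.05 was found for 2 and 1 of them, against 8.49% and 4.46% of all genes. BCAT1, another mitochondrial branched-chain aminotransferase, had the smallest p of these, at 5.93, 5.40 and 6.75 FPKM in wild type, 10.7, 8.64 and 8.98 FPKM with doxycycline and 8.36, 8.13 and 8.18 FPKM in mrpl1-1. Both groups lay above wild type, by 0.57 (SE 0.14; limma, adjusted p = 0.324) and 0.39 (SE 0.18; limma, adjusted p = 0.931) on the log2 scale. HML1, hydroxymethylglutaryl-CoA lyase of the last leucine step, was likewise at 10.0 to 13.4 FPKM in wild type, 15.6 to 17.5 FPKM with doxycycline and 14.9 to 16.2 FPKM in mrpl1-1 (limma, adjusted p = 0.407 and 0.931).

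No gene of the electron transfer route was called in any comparison (limma). With doxycycline its 4 members had a median of 0.11 and in mrpl1-1 of -0.06, with 0 of 4 at an unadjusted p under 0.05 in each. ETFA (AT1G50940) and ETFB (AT5G43430), the subunits of the flavoprotein, were at 6.27 to 10.5 FPKM and 12.3 to 17.9 FPKM over all libraries, with overlapping groups. ETFB had the smallest p of the route with doxycycline (log2 difference 0.20, SE 0.14; limma, adjusted p = 0.740), and 0.09 without wild-type replicate 2. ETFQO (AT2G43400), which hands the electrons to ubiquinone, was at 7.01 to 8.37 FPKM in wild type, 7.53 to 8.74 FPKM with doxycycline and 5.33 to 8.13 FPKM in mrpl1-1. D2HGDH (AT4G36400) oxidises D-2-hydroxyglutarate, a product of lysine breakdown, and also feeds ETF. It was at 6.78, 8.44 and 6.91 FPKM in wild type, 7.47, 7.34 and 6.95 FPKM with doxycycline and 4.96, 4.82 and 6.64 FPKM in mrpl1-1. The mutant libraries were below the others, the highest of them by little (log2 difference from wild type -0.37, SE 0.20; limma, adjusted p = 0.931). Doxycycline lay 0.36 (SE 0.17) above mrpl1-1 on the log2 scale (limma, adjusted p = 0.457).

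**Figure D3:**
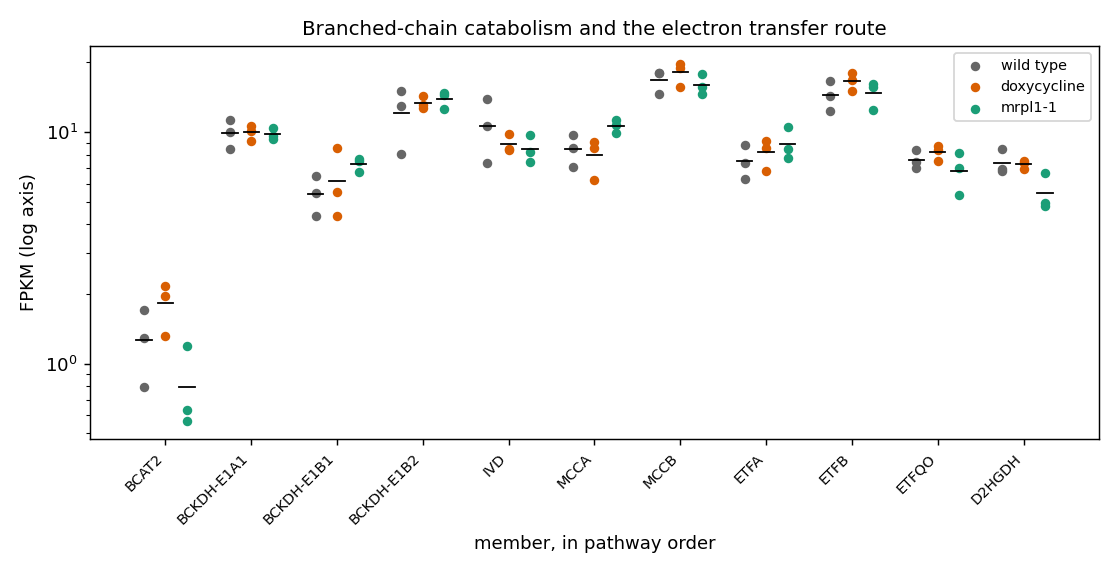
FPKM on a log axis of the 11 branched-chain catabolism and electron transfer members in the order of the pathway, with points for libraries and bars for group means. Apart from BCAT2, whose mutant libraries at 0.565 to 1.19 FPKM lie below the doxycycline libraries, the groups lie at similar levels between 4.33 and 19.7 FPKM.

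Among the genes of glutamate, proline and pyruvate, PRODH1 differed most. PRODH1 (AT3G30775, also ERD5) encodes proline dehydrogenase, which oxidises proline at the inner mitochondrial membrane. It was at 46.7, 47.3 and 42.2 FPKM in wild type, 80.0, 58.1 and 49.6 FPKM with doxycycline and 66.2, 89.7 and 75.1 FPKM in mrpl1-1. All libraries of both other groups lay above wild type, and doxycycline replicate 3 lay nearest to it. The log2 differences from wild type were 0.43 (SE 0.18) with doxycycline and 0.74 (SE 0.17) in mrpl1-1, and neither passed over all genes (limma, adjusted p = 0.584 and 0.591). Without doxycycline replicate 1 the difference with the drug was 0.24 (limma, adjusted p = 0.868). Doxycycline lay 0.31 below mrpl1-1 on the log2 scale (limma, adjusted p = 0.565), with overlap, and by between 0.16 and 0.50 with 1 library left out. GDH1 (AT5G18170) and GDH2 (AT5G07440), subunits of the glutamate dehydrogenase that returns carbon from glutamate to the citric acid cycle, overlapped wild type in both groups. GDH1 was at 27.2 to 45.6 FPKM and GDH2 at 89.8 to 156 FPKM over all libraries. PPDK (AT4G15530), pyruvate orthophosphate dikinase, was at 15.8, 15.0 and 17.0 FPKM in wild type, 18.1, 17.6 and 20.7 FPKM with doxycycline and 22.7, 9.67 and 16.6 FPKM in mrpl1-1. The doxycycline libraries were above wild type and the mutant libraries on either side of it, with mrpl1-1 replicate 2 the lowest of all.

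Of the SnRK1 subunits, no member was called in any comparison (limma), and AKINB1 alone had an unadjusted p under 0.05, in both comparisons with mrpl1-1. KIN10 (AT3G01090) and KIN11 (AT3G29160) are the catalytic alpha subunits and AKINB1 (AT5G21170) is a regulatory beta subunit. AKINB1 was at 20.8, 24.4 and 18.7 FPKM in wild type, 24.9, 27.5 and 23.5 FPKM with doxycycline and 31.5, 40.0 and 30.9 FPKM in mrpl1-1. The mutant libraries were above all others, and doxycycline overlapped wild type. The log2 differences from wild type were 0.65 (SE 0.18) in mrpl1-1 and 0.24 (SE 0.13) with doxycycline, and doxycycline lay 0.41 below mrpl1-1 (limma, adjusted p = 0.926, 0.664 and 0.363). The difference with doxycycline was 0.15 without wild-type replicate 3. KIN10 was at 22.8, 25.6 and 38.6 FPKM in wild type, 25.5, 21.6 and 21.8 FPKM with doxycycline and 21.9, 11.8 and 22.7 FPKM in mrpl1-1. Wild-type replicate 3 was the highest and mrpl1-1 replicate 2 the lowest, the same libraries that were least like their own group over all genes. KIN11 was at 10.9 to 16.6 FPKM over all libraries. Of 4 further subunits tested none was called, AKINB3 being nearest at 0.41 (SE 0.17) above wild type with doxycycline (limma, adjusted p = 0.586), and KIN12 was listed at 0 in all groups.

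The bZIP factors measured were bZIP1 (AT5G49450), of class S1, and bZIP63 (AT5G28770), of class C and a direct substrate of SnRK1. bZIP1 was at 7.52, 9.90 and 27.3 FPKM in wild type, 5.48, 9.25 and 6.49 FPKM with doxycycline and 13.4, 16.7 and 11.1 FPKM in mrpl1-1. The doxycycline libraries lay below the mutant libraries, while wild-type replicate 3 alone set the width of wild type. The log2 difference of doxycycline was -0.80 (SE 0.43) from wild type and -0.88 (SE 0.39) from mrpl1-1 (limma, adjusted p = 0.659 and 0.436). Without wild-type replicate 3 the difference from wild type was -0.28 (limma, adjusted p = 0.679). bZIP63 was at 17.5, 19.0 and 21.9 FPKM in wild type, 15.5, 18.1 and 16.5 FPKM with doxycycline and 16.5, 19.7 and 31.3 FPKM in mrpl1-1. Its difference of 0.16 (SE 0.24) in mrpl1-1 rested on replicate 3, without which it was -0.10 (limma, adjusted p = 0.945 and 0.897).

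**Figure D4:**
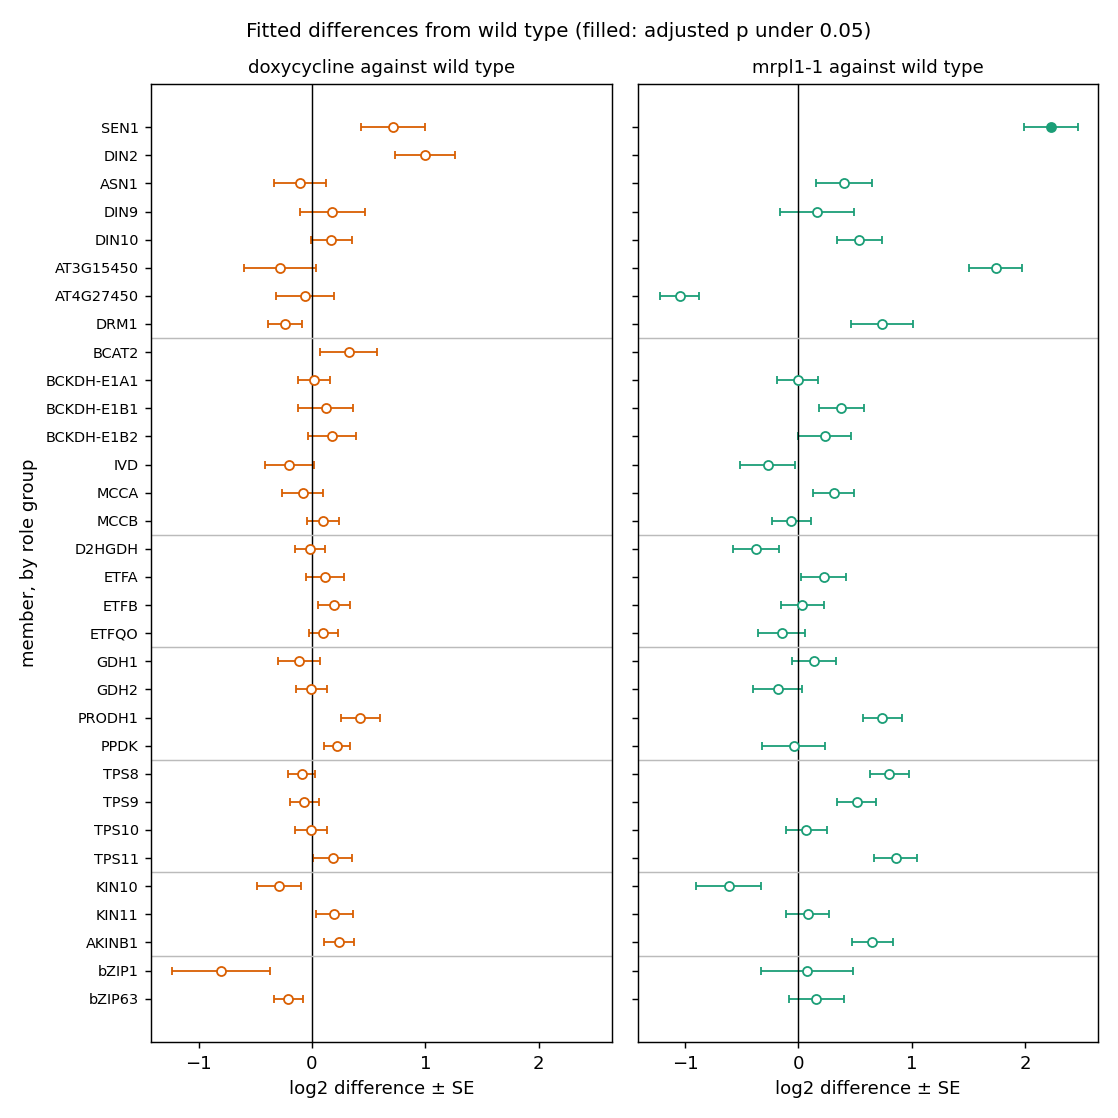
Fitted log2 differences from wild type of the members tested, with SE bars, for doxycycline on the left and mrpl1-1 on the right, by role group. Only SEN1 in mrpl1-1, at 2.22, is filled as called, and DIN2 and BCAT2 have no point on the right because they were under the filter.

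Genes of neighbouring processes were examined as lists, each tested within the same limma fits. Over all genes, an unadjusted p under 0.05 was reached by 8.49% with doxycycline and 4.46% in mrpl1-1. For doxycycline against mrpl1-1 the share was 11.2%. Of 9 senescence genes SAG12, the standard marker of late leaf senescence, was listed at 0 in all groups, and none of the 8 tested was called, with 1 at an unadjusted p under 0.05 with doxycycline and 2 in mrpl1-1. The one with the smallest p was WRKY53, a regulator of senescence, which was at 3.60 to 3.80 FPKM with doxycycline, 9.66 to 11.5 FPKM in mrpl1-1 and 4.25 to 14.4 FPKM in wild type (log2 difference of doxycycline from mrpl1-1 -1.29, SE 0.33; limma, adjusted p = 0.160). The 5 autophagy ATG8 genes had no call, 0 at an unadjusted p under 0.05, and medians of -0.18 with doxycycline and -0.03 in mrpl1-1. Among them ATG8H was nearest, at -0.39 (SE 0.18) with doxycycline (limma, adjusted p = 0.606). Genes raised by sugar had a median of 0.07 with doxycycline, -0.49 in mrpl1-1 and 0.62 for doxycycline against mrpl1-1, with 0 of 5 called in each and 1, 0 and 3 of 5 at an unadjusted p under 0.05. CHS, chalcone synthase, was nearest, at 470, 288 and 314 FPKM in wild type, 747, 518 and 761 FPKM with doxycycline and 274, 520 and 388 FPKM in mrpl1-1 (log2 difference of doxycycline from wild type 0.93, SE 0.23; limma, adjusted p = 0.313). DIN11, an oxygenase gene of the dark-inducible set that is no member here, lay opposite to SEN1. It was at 18.02, 3.77 and 21.3 FPKM in wild type, 8.55, 5.35 and 7.45 FPKM with doxycycline and 0.490, 1.00 and 3.70 FPKM in mrpl1-1 (log2 difference of mrpl1-1 from wild type -2.36, SE 0.61; limma, adjusted p = 0.824).

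Among other amino acid catabolism genes, other bZIP genes, clock genes and green tissue markers none of those tested had an unadjusted p under 0.05 in any comparison. Other amino acid catabolism genes had medians of -0.09 with doxycycline and -0.21 in mrpl1-1, with 0 of 9 and 0 of 8 called. The smallest p among them was that of GDH3, a further glutamate dehydrogenase, at -0.58 (SE 0.29) with doxycycline (limma, adjusted p = 0.637). The 4 other bZIP genes measured had medians of -0.04 and -0.07, none called, with bZIP9 nearest at 0.27 (limma, adjusted p = 0.727). Of the clock genes, which set the time of day of many starvation transcripts, 6 were tested and none called, with medians of -0.05 with doxycycline and 0.10 in mrpl1-1. CCA1, LHY and PRR9 were under the filter and not tested. CCA1 and LHY had means of 0.698 and 0.543 FPKM in wild type, 0.492 and 0.794 FPKM with doxycycline and 0.260 and 0.297 FPKM in mrpl1-1. PRR5 was nearest, at -0.24 for doxycycline against mrpl1-1 (limma, adjusted p = 0.611). Among the root markers 1 of 10 was called lower with doxycycline than in wild type, where 0.184% of all genes were called. Against mrpl1-1 5 of 11 were called lower, where 0.366% of all genes were called. RHS13, root hair specific 13, was at 57.1, 61.4 and 66.1 FPKM in wild type, 16.8, 20.9 and 18.5 FPKM with doxycycline and 96.3, 157 and 62.0 FPKM in mrpl1-1 (limma, adjusted p = 0.00583 for doxycycline against wild type). The others lower than in mrpl1-1 were LRX1, EXPA7, COBL9 and PRP3. The remaining root markers tested there, RHD6, SHR, SCR, WER, PHO1 and CASP1, were not called. No green tissue marker was called, and the smallest p was that of CFBP1 at -0.19 with doxycycline (limma, adjusted p = 0.669).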

How the data were processed

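The deposited values are FPKM, made by the authors from polyA-enriched Ion Torrent Proton libraries of whole seedlings. Per the submitters' processing notes, FastQC 0.10.1, Cufflinks 2.2.1 and build TAIR10 were used; the aligner and the use of strand are not given in the sources used here. Each value is a share of its library, so abundant transcripts move all others, and 0 can be a failed estimate. Both tables hold the 3 wild-type libraries, scaled by factors of 0.9406, 0.9406 and 0.9415, so comparisons with wild type were fitted within each table, and mutant values were divided by 0.9406 to set levels across tables. That step touches doxycycline against mrpl1-1 and every printed level.

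Log2(FPKM + 1) of genes averaging 1 FPKM or more was tested with limma 3.58.1 (trend in the prior variance) in R 4.3.3, with Benjamini-Hochberg adjustment over all genes at 0.05. Fold changes on that scale understate those of low genes. The fit was tested on simulated data. Levels are given for all members; fit results for members called, and per role group and comparison for the member with the smallest p, and of each other list for the called members or the one with the smallest p. Fit results of further members, and HML1, were added after their values were seen. Members and lists were chosen with earlier results of these data known. Depth was estimated from the value of 1 read among low FPKM; these are not exact counts, so no count test was run. Coordinates, motifs and coding identity (Biopython 1.88) are from RefSeq TAIR10.1. In it 15 of 34 members overlap a neighbouring gene, which without known strand use leaves their levels uncertain. Replicate numbers were not taken as pairs. Alternatives were other pseudocounts (0.1 and 5), filters (none and 5 FPKM), rescaling, quantile normalization, moderation, organelle genes left out, a replicate block, a fit of 6 libraries and each library left out; leaving out wild-type replicate 3 and mrpl1-1 replicate 2 together and removing the length trend were chosen after seeing the data.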

Additional observations from a re-analysis of the deposited data

Results flagged for a closer look

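3 members differed between doxycycline and mrpl1-1 by a direct test of the difference itself. SEN1 was lower with doxycycline by a log2 difference of -1.53 (limma, adjusted p = 0.0389), with 3 of 3 doxycycline libraries below every mrpl1-1 library. For AT3G15450 the difference was -2.03 (limma, adjusted p = 0.0180), again in 3 of 3 libraries. For TPS8 it was -0.90 (limma, adjusted p = 0.0312), in 3 of 3 libraries. Such a lack of overlap, in either direction, was found for 19.0% of the 19105 genes tested. Beside these values, the log2 difference of doxycycline from mrpl1-1 went with transcript length over all genes (Spearman rho 0.319 over 18918 genes, described without a test), and the 3 calls held with the length trend of each library removed, at -1.45, -1.90 and -1.04. Over all 22 alternatives the call was lost in 12 for SEN1, 5 for AT3G15450 and 9 for TPS8. With the replicate number as a block none of the 3 held.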

How the results depend on the processing

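For single members 668 fits under the alternatives kept direction and side of the threshold, 35 lost a call, 1 gained one (DRM1) and 2 changed sign: AT3G15450 with doxycycline was 0.059 without doxycycline replicate 3 (-0.49 to 0.059 with 1 library left out), and bZIP63 in mrpl1-1 was -0.10 without mrpl1-1 replicate 3 (-0.10 to 0.34). No member was called with doxycycline under any alternative. In mrpl1-1 the call of SEN1 held in 9 of 18 alternatives (adjusted p between 0.0159 and 0.245, limma): 0 members were called without a filter, with a filter of 5 FPKM, without the trend, or without both wild-type replicate 3 and mrpl1-1 replicate 2 (median 0.25). Against mrpl1-1 SEN1 kept its call in 10 of 22 alternatives, AT3G15450 in 17 and TPS8 in 13; 1 member was called without the trend and 1 without both libraries, and the median was -0.25 with a filter of 5 FPKM and -0.22 with the length trend removed. Over all genes, doxycycline gave 20 calls without a filter and 21 without the trend; mrpl1-1 gave 4 with a pseudocount of 5 FPKM, 4 without a filter and 2 with a filter of 5 FPKM; the difference gave 112 with robust moderation. Leaving out 1 library gave 9 to 91, 5 to 11 and 17 to 197 calls over all genes, 0 to 0, 0 to 1 and 0 to 3 members, and medians of 0.0045 to 0.099, 0.14 to 0.21 and -0.19 to -0.071, in the order doxycycline, mrpl1-1 and difference. The causes were not tested.

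Deviations of same-numbered libraries had correlations of -0.076 to 0.080, and those of differently numbered libraries -0.098 to 0.113. These values cannot show whether the numbers mark pairs or batches, which the labels do not say. With the replicate block 7 genes were called with doxycycline, 0 members in mrpl1-1, and 42 genes and 0 members for the difference. Depth limits DIN2, BCAT2 and DIN9 most, at an estimated 2.28 to 33.2 reads per library.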
